A study of Mus musculus with 22 samples.

Results

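A set of 10 genes of the interferon-inducible GTPase families were followed in CD11b+ cells of the mouse brain. They were 7 guanylate-binding proteins (Gbp2, Gbp3, Gbp4, Gbp5, Gbp6, Gbp7 and Gbp9) and 3 immunity-related GTPases (Irgm1, Irgm2 and Igtp, also called Irgm3). They were chosen by name, as a list of genes that interferon-gamma is known to induce, and all 10 of them were among the 56691 genes in the files. It was also known beforehand that Gbp6 was higher in P7 controls than in HIE pups, so that difference is given as a description, with no test.

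Cells were taken from 20 wildtype CF-1 mice, an outbred strain, in 5 groups of 4 animals, with 22 libraries in all. By the study's methods, HIE animals came from dams given LPS late in gestation and had a short exposure to hypoxia on P6. P7 HIE pups were compared with P7 controls, and on P14 HIE animals were compared with controls and with a group labelled Hypoxia, whose treatment the study's methods do not describe. Each group held 2 litters of 2 animals, where a litter is a shared name prefix, and each litter belonged to 1 group. The first letters of the names also give a cohort, whose meaning the labels do not explain. It was N in all P7 HIE pups and P6H in all P7 controls. On P14, HIE and control animals came from P4H and P6H litters, and all hypoxia animals from P6H litters. All 4 P7 HIE pups were labelled male, whereas every other group held 2 males and 2 females. The P7 controls carried the day labels 8 and 9 in litter P6H63 and 10 and 11 in litter P6H55. Among these controls, day label and litter cannot be told apart. All P7 HIE pups carried the day label 7. In the P7 comparison, treatment therefore cannot be told apart from day label or cohort, and only in part from sex. In the methods both of these groups are given as P7. Animals of a litter share a dam, so p-values over animals may be too small.

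Guanylate-binding proteins are large GTPases that gather on the vacuoles of intracellular pathogens and on free bacteria, and some of them help to open the way to inflammasomes, the complexes that activate inflammatory caspases. Immunity-related GTPases act on the same membranes. Irgm1, Irgm2 and Igtp are the regulatory members, which keep the effector GTPases of the family inactive on the cell's own membranes. In macrophages and microglia, interferon-gamma binds its receptor, the kinases Jak1 and Jak2 pass the signal on, and transcription factors such as Irf1 switch these genes on. The GAS element and the ISRE are the DNA elements through which these genes answer interferons, and interferon regulatory factors bind the ISRE.

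The genes lie at 4 places in the GRCm39 assembly. Gbp5 (chr3:142199739-142228105), Gbp7 (chr3:142236044-142255910), Gbp3 (chr3:142265731-142278979) and Gbp2 (chr3:142326349-142343779) follow each other on the plus strand. Gbp9 (chr5:105224332-105287452), Gbp4 (chr5:105263633-105287609) and Gbp6 (chr5:105418568-105443751) lie on the minus strand, and the annotated spans of Gbp4 and Gbp9 overlap. Irgm1 (chr11:48752795-48763164) lies on the minus strand, and Igtp (chr11:58089840-58098417) and Irgm2 (chr11:58090444-58113615) on the plus strand, with overlapping spans. The authors' counting divides reads that match transcripts of several genes, whereas these spans include introns. Of the 150-base windows of the canonical transcripts, 2.53% for Igtp occurred in Irgm2 and 0.479% for Irgm2 in Igtp. For Gbp4 0.0456% were shared, with Gbp11, and for Gbp9 0%. Windows were taken from canonical transcripts only, so some uncertainty remains in the counts of these pairs.

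The start regions are shown because the elements named above stand in them. Windows of 250 bases before the start were given by RefSeq (GRCm38.p6) for 7 of the 10 genes, 8 windows in all, with 2 for Gbp3. All 7 genes had a window with the ISRE core, GAAA and GAAA with NN between them, on one strand or the other. Of 32851 windows of all genes 2.98% held it. The GAS letters TTCNNNGAA stood in 4 of the 7, those of Gbp5, Gbp7, Igtp and Irgm2, against 7.02% of all windows. The second Gbp3 window held neither. Members are counted here by gene and the background by window. A match is a description of the letters and not a shown binding site. In the stretches below, 5′ to 3′ on the gene's strand, capitals mark the matches, and overlapping matches run together.
Igtp: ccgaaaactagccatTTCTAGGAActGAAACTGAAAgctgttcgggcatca
Irgm2: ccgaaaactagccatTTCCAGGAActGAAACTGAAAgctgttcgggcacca
Irgm1: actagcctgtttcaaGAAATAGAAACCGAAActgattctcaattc
Gbp2: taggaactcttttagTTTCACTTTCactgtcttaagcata
Gbp3: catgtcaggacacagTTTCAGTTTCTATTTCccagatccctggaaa
Gbp5: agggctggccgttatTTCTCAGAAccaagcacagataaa
The stretches of Igtp (chr11:58199496-58199546) and Irgm2 (chr11:58214887-58214937) carry a GAS match followed closely by an ISRE core. Those of Irgm1 (chr11:48871421-48871465) and Gbp3 (chr3:142559984-142560029) hold 2 overlapping ISRE cores each. The stretches of Gbp2 (chr3:142620589-142620628) and Gbp5 (chr3:142496867-142496905) show 1 match each. The ISRE core of Gbp5 and a further GAS match of Gbp5 lie outside the stretch shown.

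Before the results, the libraries themselves need a description. Total counts per library were 70191584 to 83469067 on P7 and 29751540 to 46404123 on P14, and 3 counts, the smallest level told from 0 here, correspond to 0.0359 to 0.101 CPM (counts scaled to the total of the library). The microglia marker score, the mean log2 CPM of 17 marker genes, was 6.13 and 6.76 in the P6H63 controls, against 9.37 and 9.50 in the P6H55 controls and 9.74 to 9.93 in the P7 HIE pups. In the P6H63 controls the endothelial score over 12 genes was 7.16 and 7.52, against 5.81 to 6.28 in the other 6 P7 pups. All 17 microglia markers had a positive log2 fold change for HIE over control on P7, with a median of 1.13, and all 12 endothelial markers a negative one, with a median of -0.95. The 8 markers each of choroid plexus (median -1.55), astrocytes (-1.15) and mural cells (-1.04) were also all negative. The choroid plexus score was 5.68 to 7.26 in the controls of both litters and 4.5 to 5.2 in HIE pups, so the P6H55 controls stood apart from HIE pups as well. No group lacked a microglia marker, and the microglia score was 9.66 to 10.52 in the P14 animals. In these bulk samples, fewer cells of a type and less RNA per cell cannot be told apart.

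Expressed per kilobase of the canonical transcript, Gbp7 had the highest level of the 10 genes, at 20.9 ± 5.63 CPM per kilobase (SD, n = 20 animals), followed by Irgm1 at 14.5 ± 3.02. Gbp7 was above Irgm1 in 18 of 20 animals, and Irgm1 was above Gbp9, at 8.51 ± 1.85, in 20 of 20. Irgm2 (6.69 ± 2.64) and Igtp (6.57 ± 1.51) were not separated, since Irgm2 was the higher in 7 of 20 animals. Gbp3 (5.92 ± 1.40), Gbp2 (4.92 ± 1.10) and Gbp5 (3.46 ± 0.742) came next. Gbp6 (1.01 ± 0.934) and Gbp4 (0.966 ± 0.329) were lowest, and Gbp6 was above Gbp4 in 7 of 20 animals, so that these neighbours were not separated either.

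**Figure D1:**
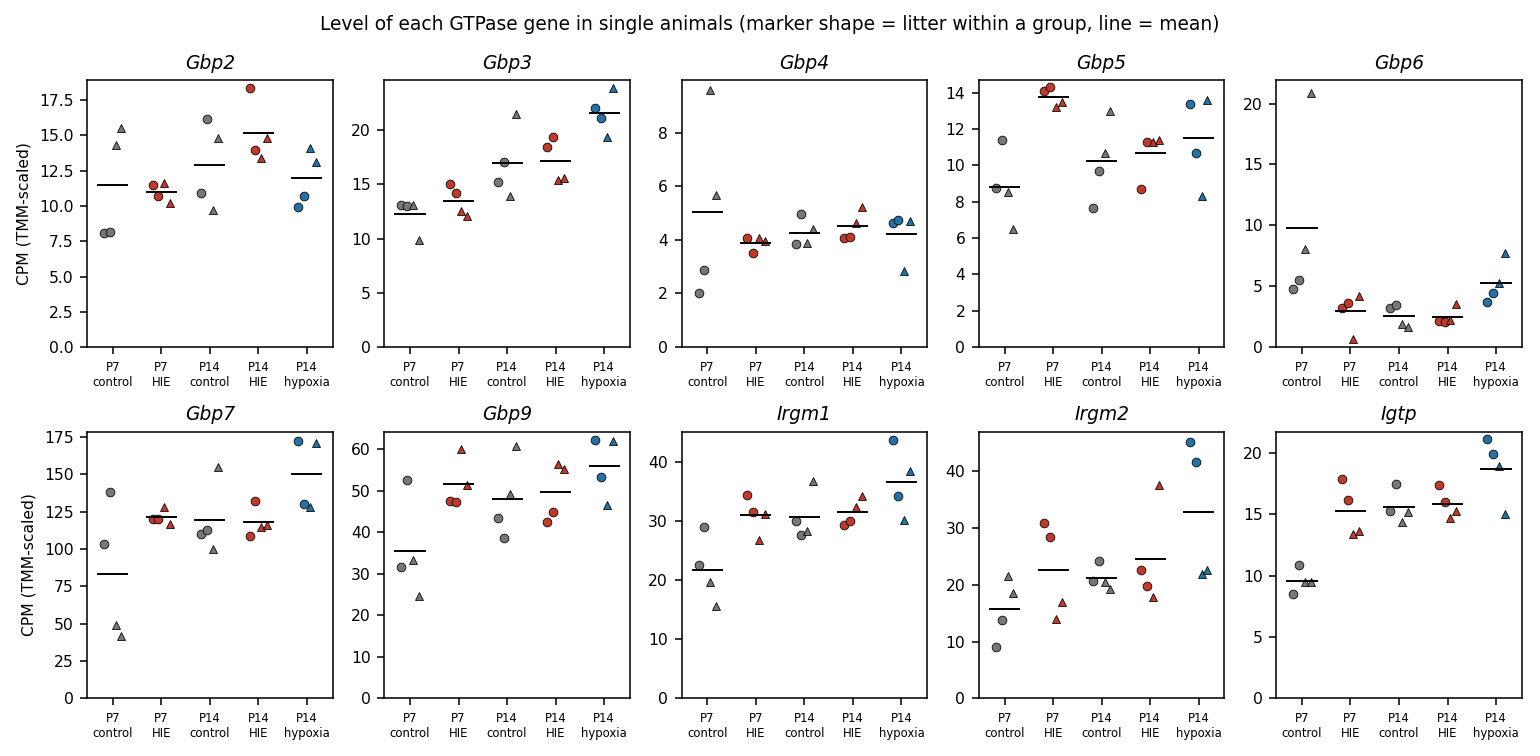
CPM (vertical axes, linear from 0) of each of the 10 genes in single animals, by group (horizontal axes), with circles and triangles for the 2 litters of a group and a line at the mean. On P7, Igtp and Gbp5 lay higher in all 4 HIE pups than in the 4 controls. Irgm2 split by litter in P7 control, P7 HIE and P14 hypoxia animals.

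The first comparison asked how the genes stood 1 day after hypoxia. On P7 most of them were higher on average in HIE pups, but none passed the test. Igtp, a regulatory GTPase, was at 13.4, 13.6, 16.2 and 17.9 CPM in HIE pups and at 8.52, 9.45, 9.46 and 10.9 CPM in controls. Gbp5, which takes part in inflammasome assembly, was at 13.2, 13.5, 14.1 and 14.3 CPM in HIE pups and at 6.49, 8.53, 8.75 and 11.4 CPM in controls. For both genes every HIE pup lay above every control, as it did for 9.22% of all genes tested.

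By edgeR's quasi-likelihood test, the log2 fold change of Igtp was 0.67 (95% interval 0.36 to 0.97, Benjamini-Hochberg adjusted p = 0.15) and that of Gbp5 was 0.64 (0.25 to 1.02, adjusted p = 0.15). Of the 10 genes 0 passed an adjusted p of 0.05, against 0.0666% of the 22517 genes tested. Apart from Gbp6, 4 genes had an unadjusted p under 0.05, all higher in HIE pups (Gbp5, Gbp9, Irgm1 and Igtp), as had 7.89% of all genes in that direction. The median log2 fold change of the 10 genes was 0.50, against -0.08 for all genes tested. With Gbp6 left aside, DESeq2 called Igtp and Gbp5, and edgeR's exact test called Igtp (Benjamini-Hochberg adjusted p = 0.0276). In simulated data DESeq2 made false calls well above its threshold, which limits what its calls show. Those data had no litters and used dispersions estimated by edgeR, so their setting differed from that of these animals.

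The P7 values depended on which control litter was used. Gbp7, the most abundant member, was at 117 to 128 CPM in HIE pups, at 103 and 138 CPM in the P6H55 controls and at 42.0 and 49.3 CPM in the P6H63 controls. Against the P6H63 controls alone its log2 fold change was 1.44 (95% interval 1.24 to 1.64), and against the P6H55 controls alone -0.0047 (-0.27 to 0.26). The control side of each of these fits was 2 littermates, so the intervals and p-values do not cover the spread between control litters. Gbp2, Gbp4 and Irgm2 were instead higher in P6H63 than in P6H55. Gbp2 was at 14.3 and 15.5 CPM in P6H63, at 8.10 and 8.13 CPM in P6H55 and at 10.2 to 11.6 CPM in HIE pups, between the litters. Gbp4 was at 5.67 and 9.57 CPM in P6H63, at 2.0 and 2.88 CPM in P6H55 and at 3.51 to 4.07 CPM in HIE pups. Irgm2 was at 18.6 and 21.5 CPM in P6H63, at 9.12 and 13.8 CPM in P6H55 and at 13.9 to 30.9 CPM in HIE pups.

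With the P6H63 controls alone 7 members other than Gbp6 passed the test, beside 58.5% of all genes, and with the P6H55 controls alone 0 did, beside 0.112% of all genes. These same P6H63 libraries had the low microglia and high endothelial marker scores given above, and the part of these scores in the member values was not tested beyond the fits with a score as covariate. With the microglia score as a covariate the log2 fold change of Irgm1 was 0.16, that of Gbp9 0.19 and that of Gbp5 0.35. That of Igtp was 0.62. The change was not in 1 direction, since Irgm2 went up from 0.51 to 1.00 and Gbp4 from -0.38 to 0.78, while Gbp7 went from 0.53 to -0.18. With this covariate 0 members passed. Igtp was the member that depended least on the litter, with log2 fold changes of 0.65 against P6H55 and 0.72 against P6H63. Gbp5 had 0.44 and 0.91, Irgm1 0.26 and 0.84, and Gbp9 0.28 and 0.86, all higher in HIE pups against either litter. Irgm2 had 0.96 and 0.20, and Gbp3 0.03 and 0.26.

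**Figure D2:**
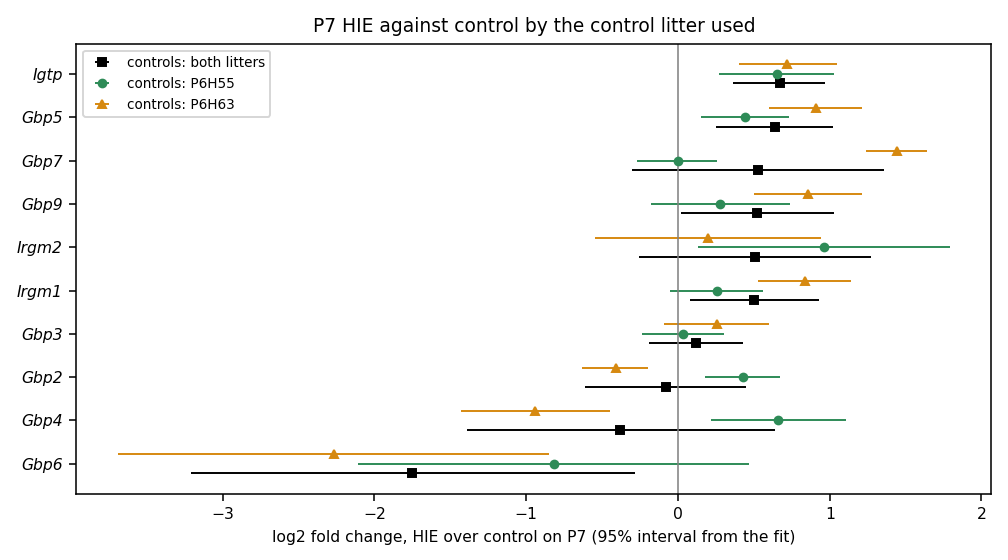
Log2 fold change of HIE over control on P7 (horizontal axis) with its 95% interval for the 10 genes, with all 4 controls (squares), the P6H55 controls (circles) or the P6H63 controls (triangles). Igtp lay between 0.65 and 0.72 in all 3 fits, whereas Gbp2 and Gbp4 changed direction between the litters. The fits on a single control litter hold 2 littermates as controls, so their intervals do not cover the spread between control litters. Gbp6 is drawn as a description only, and its intervals are no test, since its P7 levels were known beforehand.

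**Figure D3:**
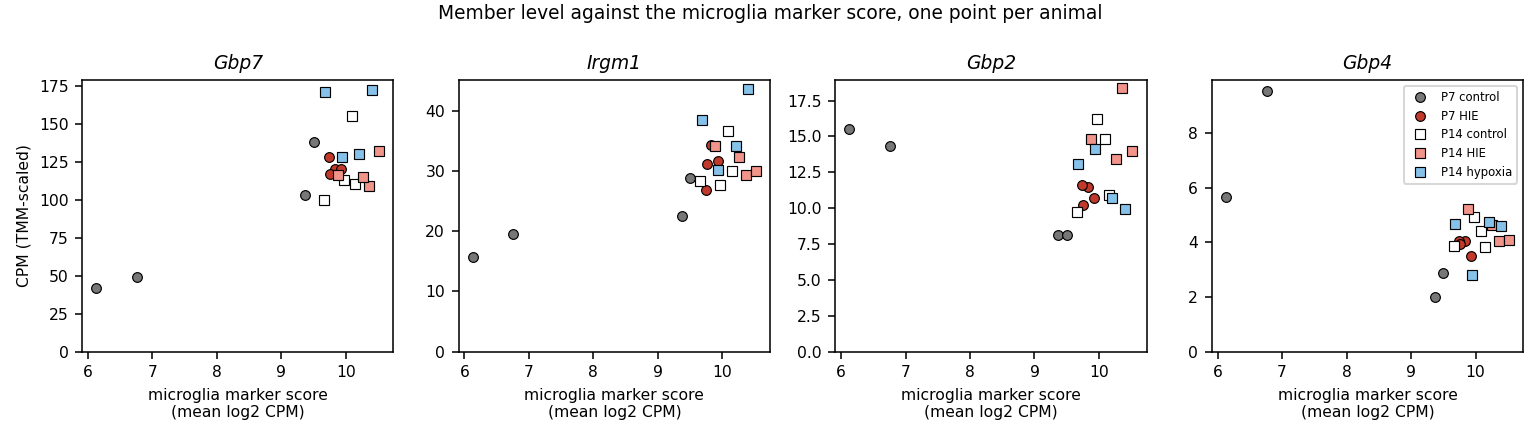
CPM of Gbp7, Irgm1, Gbp2 and Gbp4 (vertical axes, linear from 0) against the microglia marker score (horizontal axes, mean log2 CPM), 1 point per animal. The P6H63 controls, at scores of 6.13 and 6.76, were lowest in Gbp7 and Irgm1 of all animals and highest in Gbp4.

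Gbp6 was chosen with its P7 levels known. It was at 4.77, 5.54, 8.04 and 20.9 CPM in controls and at 0.693, 3.23, 3.64 and 4.20 CPM in HIE pups, with the highest value in the P6H63 control P6H63-8. Its counts are uncertain. Of the 150-base windows along its canonical transcript 77.5% occur in Gbp10 or Gm43302 as well, and its coding sequence is 98.4% identical to that of Gbp10. Summed over the 3 genes, the level was 5.73, 7.42, 19.6 and 26.0 CPM in controls and 6.61 to 7.99 CPM in HIE pups, so the groups overlapped. For the other members at most 8.86% of windows were shared, in Gbp7.

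On P14, the HIE and control animals differed little in any member. The log2 fold changes ran from -0.06 for Gbp6 to 0.21 for Gbp2, with a median of 0.03, against 0.01 for all genes. Of the 10 genes 0 passed the quasi-likelihood test of edgeR and 0 had an unadjusted p under 0.05, against 3.35% of all genes higher and 6.52% lower, and DESeq2 also called 0. In this comparison 0.00478% of 20934 genes passed. Igtp was at 14.7 to 17.4 CPM in HIE animals and at 14.4 to 17.5 CPM in controls, and the interval of its log2 fold change was -0.24 to 0.25. Irgm1 was at 29.3 to 34.2 CPM in HIE animals and at 27.7 to 36.7 CPM in controls, with an interval of -0.24 to 0.28. The interval was widest for Gbp6, at -0.75 to 0.64.

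The difference between the days was tested itself, as the HIE effect on P7 minus that on P14. It was 0.65 for Igtp (95% interval 0.29 to 1.01) with a Benjamini-Hochberg adjusted p of 0.127 by edgeR, and 0.59 for Gbp5 (0.06 to 1.12, adjusted p = 0.317). Of the 10 genes 0 passed, against 0.00405% of 24693 genes. Gbp5, Irgm1 and Igtp had an unadjusted p under 0.05 with a positive difference, against 3.60% of all genes. With Gbp6 left aside, 0 members had such a p with a negative difference, against 10.3% of all genes. The difference for Gbp6 was -1.70. It is given as a description, with no test, since it includes the P7 levels known beforehand. For Igtp the adjusted p was 0.0308 without the P7 control P6H55-7 and 0.0102 by DESeq2, whose false calls in simulated data were noted above.

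In the P14 hypoxia animals, Gbp6 and Irgm2 had the largest differences from control, and 0 members passed the test by edgeR or DESeq2, against 0.00955% of 20953 genes by edgeR. These 2 were the members with an unadjusted p under 0.05, against 2.97% of all genes in that direction. Gbp6 was at 3.66, 4.40, 5.29 and 7.69 CPM in hypoxia animals and at 1.64, 1.92, 3.21 and 3.44 CPM in controls, and the groups did not overlap, as for 2.67% of all genes in this direction. Its log2 fold change was 1.02 (95% interval 0.30 to 1.74) with a Benjamini-Hochberg adjusted p of 0.468 by edgeR. The near-identical genes were lower in hypoxia animals. Gbp10 was at 0 to 0.239 CPM and Gm43302 at 0 to 0.416 CPM in hypoxia animals, against 0.755 to 0.992 and 2.58 to 3.71 CPM in controls.

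Gbp6 held 89.8 to 95.7% of the summed level of the 3 genes in hypoxia animals, against 26.8 to 49.0% in controls and 39.3 to 54.5% in HIE animals. The sum itself was 4.07 to 8.12 CPM in hypoxia animals and 6.10 to 7.73 CPM in controls, and its log2 fold change was -0.28, opposite in sign to that of Gbp6 alone. For HIE against hypoxia, Gbp6 had a log2 fold change of -1.09 alone and -0.12 in the sum, of the same sign. Whether the genes or the division of reads among them differed cannot be told apart in these counts.

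**Figure D4:**
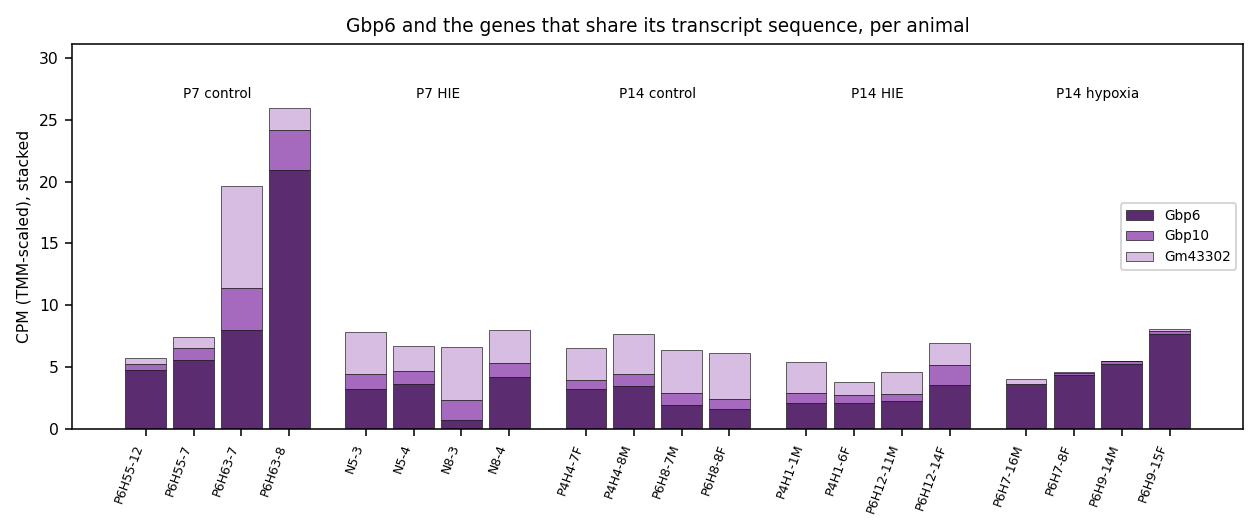
Stacked CPM (vertical axis, linear from 0) of Gbp6, Gbp10 and Gm43302 in each of the 20 animals (horizontal axis), by group. In the 4 hypoxia animals nearly the whole bar is Gbp6, whereas the height of the bars overlaps that of the P14 controls, and the tallest bars are those of the P6H63 controls.

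Irgm2, a regulatory GTPase, differed between litters of the same group. In hypoxia animals it was at 41.6 and 45.1 CPM in litter P6H7 and at 21.9 and 22.5 CPM in litter P6H9, against 19.2 to 24.1 CPM in controls. The log2 fold change was 0.60 (95% interval 0.08 to 1.11, Benjamini-Hochberg adjusted p = 0.5 by edgeR). In P7 HIE pups it was at 28.3 and 30.9 CPM in litter N5 and at 13.9 and 16.9 CPM in litter N8. The litters of the P7 controls also differed in Irgm2, as given above. Among P14 HIE animals, P6H12-14F had 37.6 CPM and its littermate 17.9 CPM. Igtp, whose annotated span overlaps that of Irgm2, was at 15.3 and 14.7 CPM in the same littermates.

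Of the other members, Gbp3 (19.4 to 23.9 CPM against 13.9 to 21.5 CPM) and Gbp7 (128 to 172 CPM against 100 to 155 CPM) had log2 fold changes of 0.33 and 0.30 for hypoxia over control, with overlapping groups. The median over the 10 genes was 0.23, against -0.01 for all genes. Between HIE and hypoxia animals 0 members passed the test, against 0.00955% of 20949 genes, and Gbp3, Gbp6 and Gbp7 had unadjusted p-values under 0.05, lower in HIE animals, against 1.84% of all genes. DESeq2 called 0 here as well. Gbp3 was at 15.4, 15.6, 18.4 and 19.4 CPM in HIE animals, and its log2 fold change against hypoxia was -0.34 (95% interval -0.61 to -0.08, Benjamini-Hochberg adjusted p = 0.999 by edgeR). The comparisons with control share the same control animals.

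Levels on P14 and P7 were set side by side within controls and within HIE animals. Day, sequencing file, depth and litter cannot be told apart here. In HIE animals the same holds for cohort, and in part for sex, since all P7 HIE pups were labelled male. In controls cohort can be told apart from day only in part, and the P7 controls carried the day labels 8 to 11. Markers of other cells also moved. In controls all 17 microglia markers had a positive log2 fold change for P14 over P7 (median 1.42) and 11 of 12 endothelial markers a negative one (median -0.86), with the P6H63 litter among the P7 controls. In HIE animals the medians were 0.47 and 0.52, and those of the oligodendrocyte lineage were 3.41 in controls and 2.26 in HIE animals. Their part in the member values was not tested. In controls Igtp was higher on P14, at 14.4 to 17.5 CPM against 8.52 to 10.9 CPM, with a log2 fold change of 0.75 (95% interval 0.46 to 1.05, Benjamini-Hochberg adjusted p = 0.005 by edgeR). Gbp6 was the second of the 2 members that passed, against 33.0% of 22320 genes. Its call is no test, since it rests on the P7 control levels known beforehand. Its log2 fold change was -1.89. In the sum with Gbp10 and Gm43302 this was -1.08 and did not pass.

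In HIE animals 3 members passed, against 46.0% of 22579 genes. Gbp2 rose from 10.2 to 11.6 CPM on P7 to 13.4 to 18.4 CPM on P14 (log2 fold change 0.48, Benjamini-Hochberg adjusted p = 0.00842 by edgeR). Gbp3 rose by 0.37 (adjusted p = 0.024) and Gbp5 fell by 0.35 on the log2 scale (adjusted p = 0.0282). Igtp was at 13.4 to 17.9 CPM on P7 and at 14.7 to 17.4 CPM on P14 in HIE animals, with a log2 fold change of 0.07 (95% interval -0.20 to 0.33). Gbp3 no longer passed without N8-3, N8-4 or P4H1-6F, and Gbp5 without N5-3, N5-4 or N8-4. Leaving out single animals left 1 to 3 members called in HIE animals and 1 to 4 in controls.

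The pathway above the members was read from lists. Ifng itself, the cytokine, was at 0 counts in 6 of 20 animals and over 3 counts in 6, and its highest level was 0.214 CPM, so it was not tested. The summed level of 12 T and NK cell markers was 2.72 to 16.2 CPM, most of it Cd4. The T cell receptor subunit Cd3e was at 0 to 0.260 CPM and the NK receptor Ncr1 at 0 to 0.0909 CPM. Klrd1, a receptor of NK and some T cells, was higher on P14 than on P7, with log2 fold changes of 5.6 in controls and 4.25 in HIE animals. Klrd1 is 1 of the 12 markers summed above, so these are changes at a low level. Between the days, 3 of the 12 markers had enough counts to be tested in controls and 4 in HIE animals. The receptor and signalling genes were expressed in every group. On P7 the interferon-gamma signalling list had 0 of 17 tested genes called and a median log2 fold change of 0.49, and 8 of the 17 lay higher in every HIE pup than in every control, against 9.22% of all genes. The same was so for 15 of the 17 microglia markers, whose median was 1.13. Among the signalling genes Irf1 (0.62, Benjamini-Hochberg adjusted p = 0.167 by edgeR), Ifngr1 (1.13, adjusted p = 0.174), Ifngr2 (0.90), Jak1 (0.42) and Irf8 (1.17) did not overlap between HIE pups and controls, and Jak2 (0.05) did. The lowest HIE pup and highest control were at 238 and 236 CPM for Jak1 and at 47.8 and 46.4 CPM for Irf1. For Ifngr2 they were at 142 and 131 CPM, for Irf8 at 267 and 243 CPM and for Ifngr1 at 286 and 221 CPM. The mean log2 CPM of the list was 4.1 and 4.2 in the P6H63 controls, 4.6 and 4.81 in the P6H55 controls and 4.96 to 5.01 in HIE pups. The part of the control litter in these values was not tested. On P14 the same list had a median of 0.02 for HIE and 0.12 for hypoxia over control, with 0 genes called in either.

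Between the days 15.6% of all genes were called higher and 17.4% lower in controls, and 22.8% higher and 23.2% lower in HIE animals, and the calls below stand beside these shares and the marker values given above. In controls the signalling genes Ifngr1 (log2 fold change 1.94), Ciita (1.76), the activator of MHC class II genes, and Jak2 (0.28) were higher on P14, and Socs1 (-0.93), an inhibitor of Jak kinases, was lower. The class II genes Cd74 (2.20), H2-Aa (2.59), H2-Ab1 (1.91) and H2-Eb1 (2.33) were also higher, whereas Nos2 (-1.78) and Wars1 (-0.48) were lower. In HIE animals 3 signalling genes were higher (Ifngr1, Jak2 and Ciita) and 5 lower (Irf1, Irf2, Socs1, Pias1 and Nlrc5), with Irf1 at -0.68. These 8 of 17 genes compare with 46.0% of all genes called.

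Among 22 other interferon-gamma targets tested in HIE animals, 4 rose, the class II genes Cd74, H2-Aa, H2-Ab1 and H2-Eb1, and 6 fell, with Cxcl10, a chemokine that draws T cells, at -3.57 and Cd274 at -1.12, beside H2-K1, Ifi30, Nos2 and Wars1. Of the 20 genes that act with these GTPases on vacuoles and inflammasomes, 8 fell and 1 rose. For both lists the share called was close to the 46.0% of all genes. The inflammasome genes Nlrp3 (-1.27), Casp1 (-0.67), Casp4 (-0.91) and Aim2 (-0.44) were lower on P14, as were Gabarap, Sqstm1, Lgals8 and Atg7, and Atg3 was higher. In controls Atg16l1 (0.61) and Il18 (0.81) were higher and Lgals3 (-0.99) lower.

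Of the 13 other interferon-inducible GTPases in the files, 0 were called within either day. In controls Tgtp2 (1.53), Gvin2 (1.44) and Mx2 (1.00) were higher on P14. In HIE animals Tgtp1 (1.53) was higher and Mx1 (-0.79), Gvin1 and Gvin3 were lower. Gvin1 was at 0 counts in all 4 P14 HIE animals against 0.333 to 20.9 CPM in P7 HIE pups. It also varied widely between animals of the other P14 groups, at 0 to 9.22 CPM in controls and 0 to 14.9 CPM (median 0) in hypoxia animals. Tgtp1 and Tgtp2, and the Gvin genes, are close copies of each other, so their counts are uncertain.

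Members were also compared with each other over the 12 P14 animals after removal of the group means, as a description over animals that share litters. Of the 45 pairs 27 had a positive Pearson's r, with a median of 0.16. The highest were Irgm1 with Gbp9 (0.86), Irgm1 with Gbp7 (0.81) and Gbp9 with Gbp5 (0.81), and the lowest was Igtp with Gbp9 (-0.49). The genes most like the mean of the members were Stxbp3 (r = 0.93), Gm38137 (0.92) and Gm49870 (0.88), the highest of 24480 genes. For single members they were Cd55 for Gbp2 (0.94), Lrrc3 for Gbp3 (0.96), Gm56977 for Gbp4 (0.95), Zc3h12c for Gbp5 (0.96), Kif1b for Gbp6 (0.92), Gm6553 for Gbp7 (0.94), Parp8 for Gbp9 (0.96), Resf1 for Irgm1 (0.95), Or10ak16 for Irgm2 (0.93) and Nudt5 for Igtp (0.96). A value this high is the top of many genes over few animals.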

How the data were processed

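CD11b+ cells had been isolated with coated beads and stranded total RNA libraries made from them. Reads were aligned by the authors to GRCm39 (STAR), and expected counts were derived by RSEM, which divides reads shared by several genes. Whether strand was used in counting is not given in the sources used here. The deposited expected counts, of which 84.2 to 88.0% were whole per library, were rounded before testing. Of 56691 Ensembl identifiers 56017 matched GENCODE.

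The repeat libraries of 2 P14 HIE animals were summed. Their members differed between the 2 libraries by a median of 0.10 and at most 0.61 on the log2 scale. Levels are CPM with TMM factors over all 20 animals, and log2 CPM used a prior count of 2. Groups came from the labels. Groups were compared in edgeR 4.0.16 (R 4.3.3) by quasi-likelihood F-tests after TMM scaling and filterByExpr, with Benjamini-Hochberg adjusted p-values over every gene tested and a threshold of 0.05. DESeq2 1.42.0 was an alternative. Others covered scaling, the filter, the exact test, sex, cohort, litter, marker scores and leaving out each animal. The sum of Gbp6, Gbp10 and Gm43302 was added after the shared sequence was seen. The procedure was tested on simulated data, where DESeq2 made false calls well above its threshold on both days and more often than edgeR's quasi-likelihood test. The latter left part of the changed genes uncalled. Simulated animals were independent, without litters, and had dispersions estimated by edgeR, so the contrast between the tools may not carry over to these data.

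The members, lists and tests were chosen with earlier results of these data known. Named are the 10 members in every comparison, the called genes of each pathway list, fixed signalling genes and the genes most alike. One gene of the signalling list is not reported here. Member log2 fold changes from 0.3 in size entered the alternatives. Intervals cover the spread between animals, and 3 counts as a floor covers counting error only.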

Additional observations from a re-analysis of the deposited data

Results flagged for a closer look

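In 5 of 50 groups of 4 animals (10 genes in 5 groups), 1 animal stood far from the other 3, where chance gives about 1 in 20 groups. Gbp3 was at 9.90 CPM in the P7 control P6H63-8, against 13 to 13.1 CPM in the others. Gbp4 was at 2.82 CPM in the hypoxia animal P6H9-14M, against 4.61 to 4.74 CPM. Gbp5 was at 8.68 CPM in the P14 HIE animal P4H1-1M, against 11.3 to 11.4 CPM. Gbp6 was at 0.693 CPM in the P7 HIE pup N8-3, against 3.23 to 4.20 CPM, while its sum with Gbp10 and Gm43302 was 6.61 CPM there, against 6.74 to 7.99 CPM. Gbp6 was at 3.57 CPM in the P14 HIE animal P6H12-14F, against 2.07 to 2.25 CPM, and Irgm2 was also highest in that animal.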

How the results depend on the processing

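Counts of members that passed an adjusted p of 0.05 were 0 on P7 for HIE against control in the main test, 3 with DESeq2, 1 with the exact test, 8 with the P6H63 controls alone and 0 to 4 without single animals. The counts of 3 and 8 include Gbp6, whose P7 levels were known beforehand and whose call is no test, and the 4 were Gbp5, Gbp9, Irgm1 and Igtp without the control P6H55-7. For the HIE effect on P7 minus P14 the count was 1 with DESeq2 and 0 to 1 without single animals. For controls on P14 against P7 it was 1 with Gbp6 summed with its copies and 1 to 4 without single animals, the 4 again without P6H55-7 and the 1 without P6H8-7M or P6H8-8F, and for HIE animals 1 to 3, the 1 without the pup N8-4. In the 3 comparisons within P14 the count was 0 under every alternative run. On P7, the log2 fold change of Gbp4 was -0.38 and reversed to 0.66 with the P6H55 controls alone, 0.78 with the microglia score and 1.05 with the endothelial score as a covariate, and without single animals it ran from -0.64 to 0.14, the latter without P6H63-7. That of Gbp7 reversed to -0.0047, -0.18 and -0.25 under the first 3 of these. The day difference for Gbp4 ran from -0.69 to 0.07 without single animals, reversed without P6H63-7, and Gbp6 for hypoxia reversed to -0.28 in the sum. The cause of these reversals was not tested. Scaling by library size alone moved the median of all genes by -0.20 on P7 and the members' median there from 0.50 to 0.29. That median was 0.30 in males only, 0.27 with the microglia score and 0.31 with the endothelial score. With the microglia score Irgm1 went from 0.50 to 0.16 and Gbp9 from 0.52 to 0.19, and with the endothelial score to 0.22 and 0.21. Irgm2 instead went from 0.51 to 1.00 with the microglia score and to 1.16 with the endothelial score. No paired analysis was possible because replicate numbers were given in accession order and litters lie within groups. Depth was lower on P14, and 4 animals per group from 2 litters limit every test.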

Other observations

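The type I interferon targets, genes such as Rsad2, Irf7 and Zbp1 that answer interferon-alpha and -beta, were compared between HIE and control animals on P14. Of 20 tested genes 0 were called for HIE against control by edgeR, 11 were lower at an unadjusted p under 0.05, as were 6.52% of all genes, and the median log2 fold change was -0.59. That of the members was 0.03, and the difference between the lists was not tested. Cell markers also moved in this comparison. All 8 neuronal markers were lower at an unadjusted p under 0.05 (median -0.98), and 6 of 8 mural, 5 of 12 endothelial and 4 of 8 monocyte and neutrophil markers were higher, against 3.35% of all genes. Their part in these values was not tested. In HIE animals on P14 against P7, 12 of these 20 genes fell and 0 rose, against 23.2% of all genes lower and 22.8% higher. They were Ifit1, Ifit2, Isg15, Rsad2, Irf7, Oas1a, Oasl1, Oasl2, Zbp1, Stat2, Rtp4 and Bst2, with Zbp1 at -1.65 and Rsad2 at -1.47. In controls on P14 against P7, Ifit3 (0.96) and Ifih1 (0.57) rose and 0 fell, against 15.6% of all genes higher and 17.4% lower.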
